A study of Rattus norvegicus with 4 samples.

Results

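This account covers 41 genes of interferon signalling: the receptors and their kinases, the interferon regulatory factors (Irf) and STAT transcription factors, feedback inhibitors, and genes that interferons induce. Members were taken by gene name, with older names accepted. By that rule 38 of the 41 had at least 1 probe among the 41012 probes of the array, on 51 probes in all. After a filter on dim probes 29 members were tested, among 22190 genes.

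The cells were olfactory ensheathing cells, the glia that accompany olfactory axons from the nose into the brain, cultured from male Fischer rats. They were sorted by flow cytometry on p75, the low-affinity neurotrophin receptor encoded by Ngfr, into a p75High and a p75Low population, each given as 98% pure. The labels name no genetic change or drug treatment for either population and give no age of the rats. Each of 4 paired biological replicates gave 1 two-colour Agilent array, with p75High always in the Cy5 and p75Low always in the Cy3 channel, so dye and population cannot be told apart. What separated the replicates (animals, cultures or preparations) is not labelled, so a p-value here covers only the spread of these 4 arrays, part of which may be technical.

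Type I interferons bind a receptor of the chains Ifnar1 and Ifnar2, whose kinases Tyk2 and Jak1 phosphorylate STAT proteins; with Irf9 these enter the nucleus and bind the interferon-stimulated response element (ISRE). Interferon gamma binds Ifngr1 and Ifngr2, signals through Jak1 and Jak2, and acts on gamma-activated sequences (GAS). Many of the induced proteins limit viruses or sense their RNA, and Socs1, Socs3 and Usp18 damp the signal.

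Promoter sequences show how the members differ before any expression value is considered. A RefSeq promoter window, 250 bases before to 50 after the gene start in the GRCr8 assembly, was matched for 32 of the 41 members. The ISRE core was searched on both strands as GAAA, then any 2 bases, then GAAA, and GAS as TTCNNNGAA, which reads the same on the opposite strand. At least 1 ISRE core stood in 13 of the 32 windows (40.6%), against 1312 of all 33469 windows (3.92%). By role it stood in 11 of 16 windows of induced genes (68.8%), 1 of 9 of transcription factors (Irf7), 1 of 2 of feedback inhibitors (Socs1) and 0 of 5 of receptors and kinases. A GAS match stood in 10 of 32 windows (31.2%), against 8.87% of all windows. A match is a run of letters and not a shown binding site.

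The 150 bases before the start of 6 members are printed to show where these letters lie, with capitals marking the ISRE core, or for Slfn2 the GAS match. These 6 were chosen for a factor and 4 induced genes with a core, and for Slfn2 as the member with the largest ratio. The core of Ifit3 began 44 bases before the start and that of Irf7 69 bases before it. In Oas1a and Bst2 a pair of cores share 4 bases, and in Bst2 a GAS match, not in capitals, overlaps the first core. Slfn2 had no ISRE core in its window, and its GAS match began 88 bases before the start.

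Irf7, chr1:205800024-205800173, strand minus: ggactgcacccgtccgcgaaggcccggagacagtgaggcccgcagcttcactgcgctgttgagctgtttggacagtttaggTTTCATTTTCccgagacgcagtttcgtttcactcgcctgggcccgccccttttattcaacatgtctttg
Ifit3, chr1:241527176-241527325, strand plus: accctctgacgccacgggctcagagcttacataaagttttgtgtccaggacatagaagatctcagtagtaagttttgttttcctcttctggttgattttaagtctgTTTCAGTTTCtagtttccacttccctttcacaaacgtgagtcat
Oas1a, chr12:41330316-41330465, strand plus: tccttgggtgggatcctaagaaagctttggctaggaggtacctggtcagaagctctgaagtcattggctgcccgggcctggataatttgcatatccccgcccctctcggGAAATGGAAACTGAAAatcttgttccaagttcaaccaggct
Bst2, chr16:18254968-18255117, strand minus: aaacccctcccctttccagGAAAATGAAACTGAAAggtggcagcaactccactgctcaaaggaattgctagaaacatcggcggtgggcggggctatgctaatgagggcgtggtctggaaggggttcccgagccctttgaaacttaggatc
Rsad2, chr6:48788121-48788270, strand minus: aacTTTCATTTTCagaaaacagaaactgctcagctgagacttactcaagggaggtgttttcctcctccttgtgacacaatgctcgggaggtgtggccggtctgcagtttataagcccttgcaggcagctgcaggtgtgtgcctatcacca
Slfn2, chr10:68450711-68450860, strand plus: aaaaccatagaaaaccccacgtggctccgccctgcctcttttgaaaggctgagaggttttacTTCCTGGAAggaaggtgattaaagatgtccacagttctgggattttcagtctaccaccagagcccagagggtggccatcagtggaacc

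Values below are log2 ratios of p75High over p75Low, given for replicates 1 to 4 and then as mean ± SD over the 4 arrays, with adjusted p from limma over all 22190 genes. Levels are normalized log2 spot intensities, comparable between populations for the same probe only. The p75 gene checked the sort: Ngfr rose in p75High, at 6.07, 6.17, 5.02 and 5.96 (mean 5.80 ± 0.53, adjusted p = 0.0262). Signal well above background was found for 22464 to 28062 probes of p75High and 23044 to 26174 of p75Low on an array. The 12 tested markers of ensheathing and Schwann lineage glia had a median of 1.57, and Ngfr alone of them passed.

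Of the 29 tested members 1, Slfn2, was lower in p75High past the adjusted threshold of 0.05, and 0 were higher. Over all genes 0.748% passed in either direction, 0.311% higher and 0.437% lower. At an unadjusted p under 0.05, limma gave 6 members lower and 0 higher, against 6.92% and 5.82% of all genes. The mean ratio was negative for 22 of the 29 (75.9%, against 51.4% of all genes), and the median was -0.89 against -0.03 for all genes. On all 4 arrays 11 members were negative (37.9%), where 13.1% of all genes were. The members positive on all 4 arrays numbered 0, where 12.6% of all genes were, and the remaining 18 had mixed signs. With a mean of at least 2 either way as well, 5 members were negative on all 4 arrays (3.92% of all genes) and 0 positive (3.18% of all genes): Slfn2, Ifngr1, Ifi44, Slfn3 and Irf5. These counts are affected by the filter, since a gene that passed it through 1 channel alone tends to read in that channel's favour. Irf7, Irf9, Slfn3, Eif2ak2 and Ifit3 passed through p75Low alone, and 4 of these 5 were negative on all 4 arrays, as were 34.2% of all genes that passed that way. Ifit1 passed through p75High alone. Among the 23 members that passed in both channels, 7 were negative on all 4 arrays (30.4%, against 13% of such genes), 17 had a negative mean (73.9%, against 53.2%) and the median was -0.69 against -0.06. Of the 5 genes named above, Slfn3 is not among these 23. Fewer cells of a type and less RNA per cell cannot be told apart in these bulk samples.

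**Figure D1:**
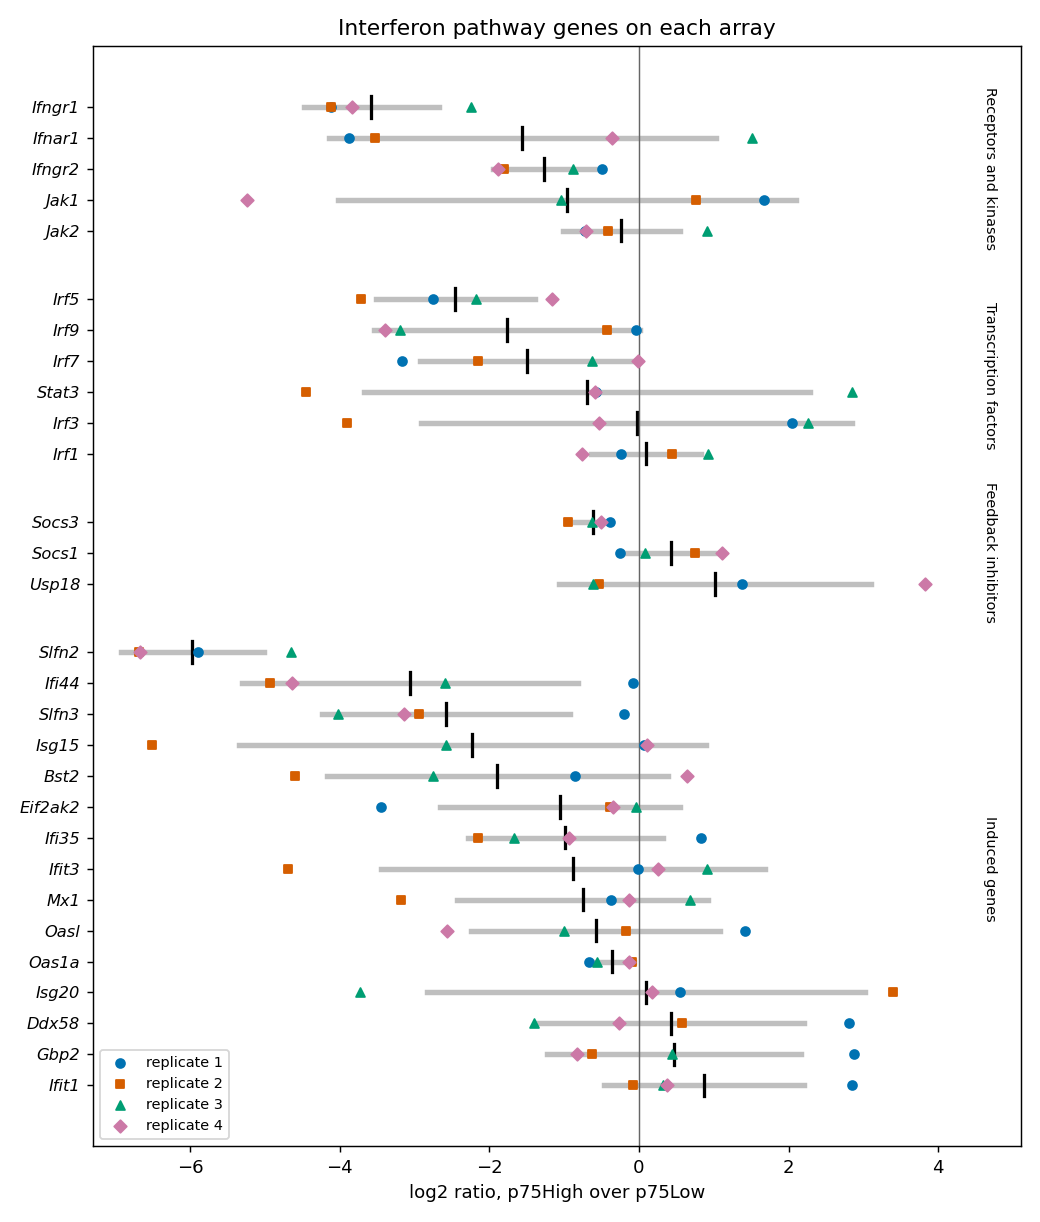
Log2 ratio of p75High over p75Low (horizontal axis) for the 29 tested members, ordered by role; symbols are the 4 replicates, black bars the mean and grey bars 1 SD either side. Slfn2 lies below -4.6 on every array, and 18 members have symbols on both sides of 0.

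Markers of another cell type moved with the sort. Of 15 tested markers of microglia and macrophages 8 fell in p75High, 13 were negative on all 4 arrays, and their median was -4.56. Their summed intensity ranged from 13555 to 19815 in p75High and from 268224 to 386215 in p75Low. On each array all 15 gave signal well above background in either channel, so the signal of none fell to background. Itgam, an integrin of myeloid cells, read -5.77 ± 0.33 (adjusted p = 0.0262). Csf1r, the receptor macrophages need for survival, read -6.08 ± 0.61 by its brightest probe (adjusted p = 0.0262), and -0.25 and 0.41 by its other probes. Ptprc was not analysed here. The part of these cells in the ratios of interferon genes was not tested. Of 5 lymphocyte, 6 fibroblast, 4 endothelial and 1 dendritic cell markers tested, 0 passed in limma; at an unadjusted p under 0.05 the fibroblast markers gave 2 higher and 2 lower, the endothelial ones 2 higher, and the others 0.

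The receptors and kinases had negative mean ratios in 5 of 5 tested members, with a median of -1.26. None passed in limma, and 2, Ifngr1 and Ifngr2, were lower at an unadjusted p under 0.05. Ifngr1, the ligand-binding chain of the interferon gamma receptor, read -4.11, -4.12, -2.24 and -3.84 (mean -3.58 ± 0.90, SE 0.45, an 11.9-fold ratio). Its level was 7.0, 8.36, 6.40 and 8.38 in p75High against 11.11, 12.48, 8.64 and 12.21 in p75Low. All 4 p75High levels lay below all 4 p75Low levels, and replicate 3 showed the smallest difference. Its adjusted p was 0.0666, short of the threshold. With a filter that required signal on all 4 arrays it was 0.0499, and with the scanner's own log ratios it was 0.0473 (mean -4.22), so the call turned on the processing. The Ifngr1 probe lies at chr1:14860957-14861016 in rn4, the build in the file headers.

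Ifngr2, the signalling chain of that receptor, was negative on all 4 arrays at a smaller size, at -0.49, -1.81, -0.88 and -1.88 (mean -1.26 ± 0.69, adjusted p = 0.322). Replicates 2 and 4 read lowest for it, and its populations overlapped in level, from 7.74 to 9.48 in p75High and from 8.61 to 11.36 in p75Low. Ifnar1, a chain of the type I receptor whose gene lies beside Ifngr2 on chromosome 11, varied more. Its brightest probe read -3.87, -3.52, 1.52 and -0.36 (mean -1.56 ± 2.59, adjusted p = 0.573). Its other probe averaged -2.20 and read -4.18 on replicate 3, the array on which the first was positive. On replicate 1 the other probe read -0.30, against -3.87 by the brightest. Ifnar1 therefore had no settled value on replicates 1 and 3.

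Jak1, the kinase shared by both receptors, was as variable, at 1.67, 0.76, -1.04 and -5.24 (mean -0.96 ± 3.07) by its brightest probe. Its other probe averaged 0.48, with 4.58 on replicate 1 and -0.04 on replicate 4. Without replicate 4 the mean of Jak1 was 0.46, on the other side of 0. Jak2, which pairs with Ifngr2, stayed within 1 of 0 on each array (mean -0.23 ± 0.78). Ifnar2 and Tyk2 had no probe under the naming rule.

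Transcription factors gave a median of -1.09 over 6 tested members, of which 5 had a negative mean. The median depended on 1 array and on the filter: by array it was -0.40, -2.93, 0.15 and -0.68, without replicate 2 the median of the means was -0.65, and over the 4 factors measured in both channels it was -0.36. It was -1.75 with the scanner's log ratios. None passed in limma, and 1, Irf5, was lower at an unadjusted p under 0.05. Irf5, which acts below Toll-like receptors in myeloid cells, was negative on every array, at -2.75, -3.71, -2.18 and -1.17 (mean -2.45 ± 1.06, SE 0.50, adjusted p = 0.196, a 5.47-fold ratio). Its p75High levels ran from 8.42 to 9.12 and its p75Low levels from 10.29 to 12.22, without overlap. Replicate 2 had the widest gap and replicate 4 the narrowest. The Irf5 probe lies at chr4:56418353-56418412 (rn4).

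Irf8, a factor of myeloid development, had no probe by name. Another probe (chr19:51116691-51116750, rn4) carried its gene ID in the description and was found after the values had been seen, so it stands outside the 29. It read -4.13, -3.36, -2.98 and -0.76 (mean -2.81 ± 1.45, adjusted p = 0.241), negative on all 4 arrays as Irf5 was. Its p75Low level ranged from 7.31 on replicate 4 to 11.46 on replicate 1, and its p75High level from 6.16 to 7.33.

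Irf9, the DNA-binding partner of the STAT pair, split the arrays. It read -0.04 and -0.42 on replicates 1 and 2 but -3.19 and -3.39 on replicates 3 and 4 (mean -1.76 ± 1.78, adjusted p = 0.432). Its p75Low level moved from 6.06 and 6.56 on the first pair to 9.06 and 10.75 on the second, while p75High stayed between 5.87 and 7.35. Irf7, which amplifies interferon alpha production, showed the opposite split, at -3.16, -2.16, -0.63 and -0.02 (mean -1.49 ± 1.43, adjusted p = 0.428). The p75High channel of Irf7 was well above background on 1 of 4 arrays, and that of Irf9 on 2 of 4.

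Irf3, the factor that switches on interferon genes after a virus is sensed, averaged -0.03 ± 2.88, with 2.05 and 2.26 on replicates 1 and 3 and -3.90 on replicate 2. Irf3 changed sign with the processing: its mean was 1.26 without replicate 2, 0.14 without replicate 4, and between 0.04 and 0.15 under 3 other ways of correcting or scaling the arrays. Irf1, an activator induced by interferon gamma, averaged 0.09 ± 0.74 and its arrays lay on both sides of 0, with means of -0.02 and -0.18 without replicates 2 and 3. Stat3, the STAT of the interleukin 6 family, averaged -0.69 ± 2.98, with -4.45 on replicate 2 and 2.85 on replicate 3, and a mean of 0.56 without replicate 2. Its other probe read 2.93 on replicate 2, opposite to the first. Irf2, Irf4 and Stat2 fell below the filter on dim probes. Of these Irf2 read 4.88 on replicate 1 and -2.06 on replicate 3, and Stat2 read -2.99 and -2.31 on replicates 2 and 3 and near 0 on the others.

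Of the 3 feedback inhibitors 2 had positive means, and the median of the means was 0.43. The size of this median rested on replicate 4, without which the median of the means was 0.08. The medians by array were -0.25, -0.53, -0.61 and 1.11. None passed in limma, and 0 did at an unadjusted p under 0.05. Socs3, which blocks signalling by interleukin 6 type receptors, was negative on all 4 arrays at a small size, from -0.95 to -0.39 (mean -0.62 ± 0.24, adjusted p = 0.445). Its SD was the smallest among the 29 members. Socs1, an inhibitor of the receptor kinases, averaged 0.43 ± 0.62, with 1 of 4 arrays negative. Usp18, which strips Isg15 from proteins and blocks the type I receptor, averaged 1.02 ± 2.09, with 3.83 on replicate 4 and 1.38 on replicate 1, and 0.08 on average without replicate 4. The other Usp18 probe read 5.68 on replicate 4 and between -0.26 and 0.33 on the rest, so both probes put replicate 4 highest.

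**Figure D2:**
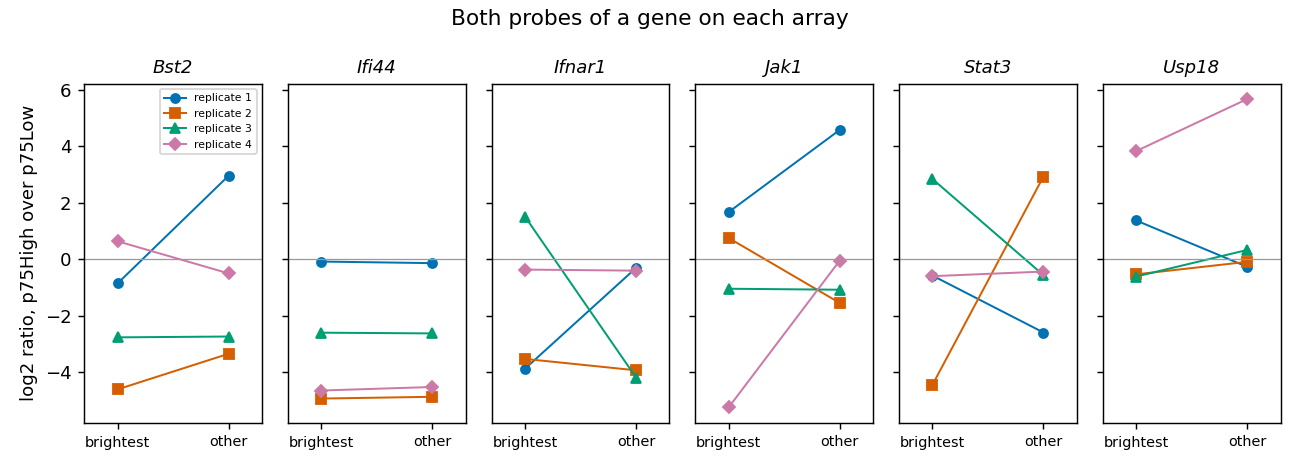
Log2 ratio of p75High over p75Low (vertical axis) on each array for the 6 members with 2 kept probes, the brightest at the left of each panel and the other at the right; lines join the same replicate. Both Ifi44 probes give nearly the same ratios, and the lines of Bst2, Ifnar1, Jak1, Stat3 and Usp18 cross.

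Induced genes had a median of -0.89 over 15 tested members: 11 had a negative mean, 5 were negative on all 4 arrays, and 1 fell past the threshold. That gene was Slfn2, of the schlafen family, which in mice keeps lymphocytes and monocytes quiescent. Its ratios were -5.89, -6.68, -4.65 and -6.67 (mean -5.97 ± 0.96, SE 0.46, adjusted p = 0.0262), a 62.8-fold lower signal in p75High. Its level was 6.68, 6.78, 6.12 and 8.39 in p75High and 12.57, 13.46, 10.76 and 15.06 in p75Low. The highest p75High level lay below the lowest p75Low level, and both channels of every array were well above background. Without any filter on dim probes its adjusted p was 0.0548, and without any 1 replicate it lay between 0.105 and 0.14, where 0 of all genes passed in limma and 809 to 1155 were higher and 1021 to 1221 lower at an unadjusted p under 0.05.

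Slfn3, a neighbouring family member on chromosome 10, also read negative on all 4 arrays, at -0.19, -2.94, -4.02 and -3.14 (mean -2.58 ± 1.66, SE 0.71, adjusted p = 0.308). On replicate 1 its level was 6.32 in p75High and 6.51 in p75Low, and the gap opened on the other arrays through p75Low levels of 9.09 to 10.96. The populations overlapped, since p75High reached 7.82 on replicate 4. The p75High channel of Slfn3 was well above background on 2 of 4 arrays, so the size of its ratio is uncertain. RefSeq now gives the accession of this probe the symbol Slfn4, so which of the closely related schlafen genes it reads is uncertain. The sequences of the Slfn2 and Slfn3 probes, with rn4 coordinates, are printed to identify what was measured.

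Slfn2 probe, chr10:71241498-71241557, strand plus: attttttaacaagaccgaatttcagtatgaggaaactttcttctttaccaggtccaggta
Slfn3 probe, chr10:71300407-71300466, strand plus: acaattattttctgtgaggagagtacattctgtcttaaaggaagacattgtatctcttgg

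Ifi44, an interferon-induced cytoplasmic protein, read -0.08, -4.93, -2.59 and -4.64 (mean -3.06 ± 2.24, SE 0.94, adjusted p = 0.326). Its p75Low level was 6.30 on replicate 1 against 10.97, 8.48 and 11.88 on the others, while p75High stayed between 5.89 and 7.24. Replicate 1 therefore showed no gap and the other 3 did, as for Slfn3. Each channel of this Ifi44 probe was well above background on 3 of 4 arrays, so the size of its ratio is uncertain. A second kept Ifi44 probe averaged -3.03 ± 2.17 and gave nearly the same ratio on each array. Its p75High channel was well above background on 1 of 4 arrays. The kept probes share the run of 50 bases in capitals, so they are no independent measurements. Another Ifi44 probe, below the filter and at a separate site, read 0.10, -3.57, -0.04 and 0.14. It showed a gap on replicate 2 alone, and was well above background on 0 arrays in p75High and 1 in p75Low.

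Ifi44 brightest probe, chr2:250046371-250046430, strand minus: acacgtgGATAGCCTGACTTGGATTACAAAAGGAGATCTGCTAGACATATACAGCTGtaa
Ifi44 other kept probe, chr2:250046364-250046423, strand minus: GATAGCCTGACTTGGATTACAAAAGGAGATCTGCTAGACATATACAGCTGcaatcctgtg

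**Figure D3:**
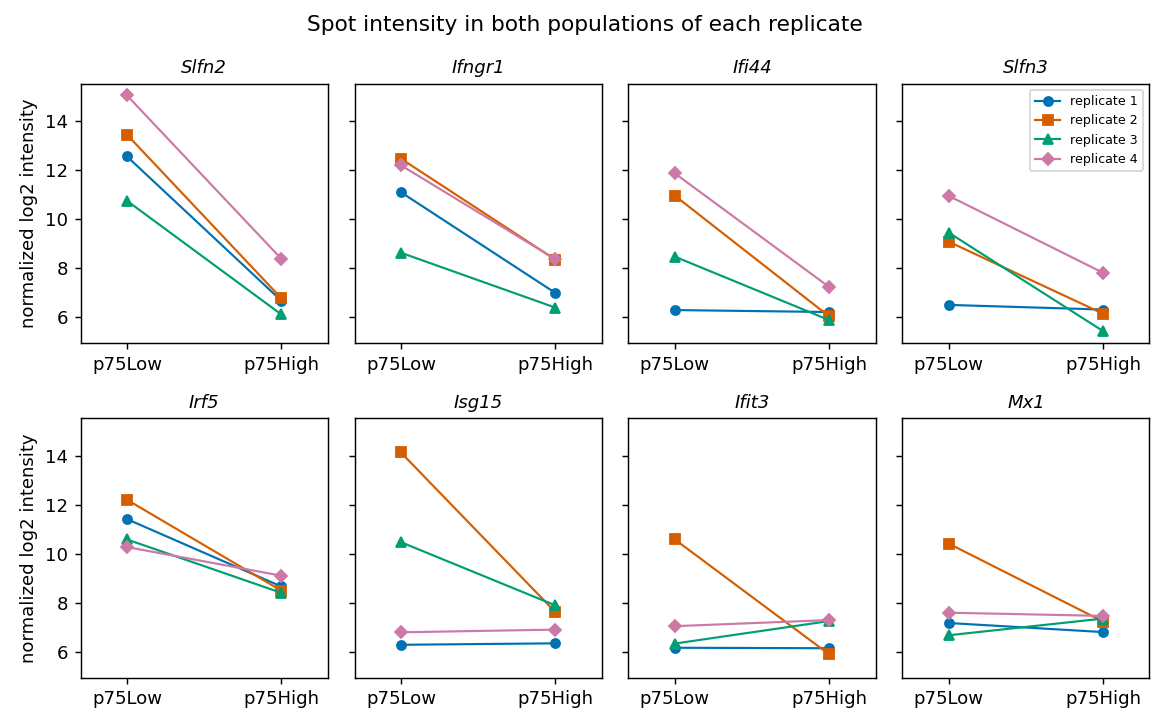
Normalized log2 spot intensity (vertical axis) of 8 members in the p75Low and p75High channels, with a line for each of the 4 replicates. Lines of Slfn2, Ifngr1 and Irf5 all slope down; Isg15, Ifit3 and Mx1 have their highest p75Low value, 14.15, 10.60 and 10.43, on replicate 2.

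Several antiviral genes read lowest on replicate 2, a pattern picked out after the values were seen. Isg15, a ubiquitin-like protein that is attached to other proteins, read 0.06, -6.51, -2.57 and 0.11 (mean -2.23 ± 3.12, adjusted p = 0.522). Its p75Low level was 14.15 on replicate 2 and 10.49 on replicate 3, against 6.30 and 6.81 on replicates 1 and 4. Ifit3, which binds viral RNA with other Ifit proteins, read -0.02, -4.69, 0.92 and 0.25 (mean -0.89 ± 2.57, adjusted p = 0.735). Replicates 1, 3 and 4 of Ifit3 lay near or above 0, and without replicate 2 its mean was 0.38. Mx1, a GTPase that blocks influenza viruses, read -0.37, -3.18, 0.68 and -0.13 (mean -0.75 ± 1.68, adjusted p = 0.675), and 0.06 on average without replicate 2. Bst2, or tetherin, which holds budding viruses at the cell surface, read -0.85, -4.60, -2.76 and 0.64 (mean -1.89 ± 2.28, adjusted p = 0.482). Its other probe averaged -0.90 and was likewise lowest on replicate 2. That probe read 2.97 on replicate 1 and -0.50 on replicate 4, each opposite in sign to the brightest. Without replicate 2 the mean was -0.80 for Isg15 and -0.99 for the brightest probe of Bst2. These kept a negative sign where Ifit3 and Mx1 did not.

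Counted over members, 14 of 29 lay below -2 on replicate 2 (48.3%), against 6, 9 and 7 on replicates 1, 3 and 4. At the other end 4, 1, 2 and 1 members lay above 2 on replicates 1 to 4. Over all genes 15% lay below -2 on replicate 2, and 12.6%, 11.1% and 12.1% on the others. For the induced genes alone these counts were 2, 8, 6 and 4 of 15 below -2 and 3, 1, 0 and 0 above 2 on replicates 1 to 4, so that replicate 1 had more above than below. The median of the induced genes was -0.02, -2.15, -1.40 and -0.27, while that of all genes lay between -0.02 and 0. The microglia and macrophage list gave medians of -4.59, -5.30, -5.02 and -4.48, also lowest on replicate 2, and the part of those cells in the spread between replicates was not tested. The median SD of a member over the 4 arrays was 1.66, against 1.15 for all genes.

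**Figure D4:**
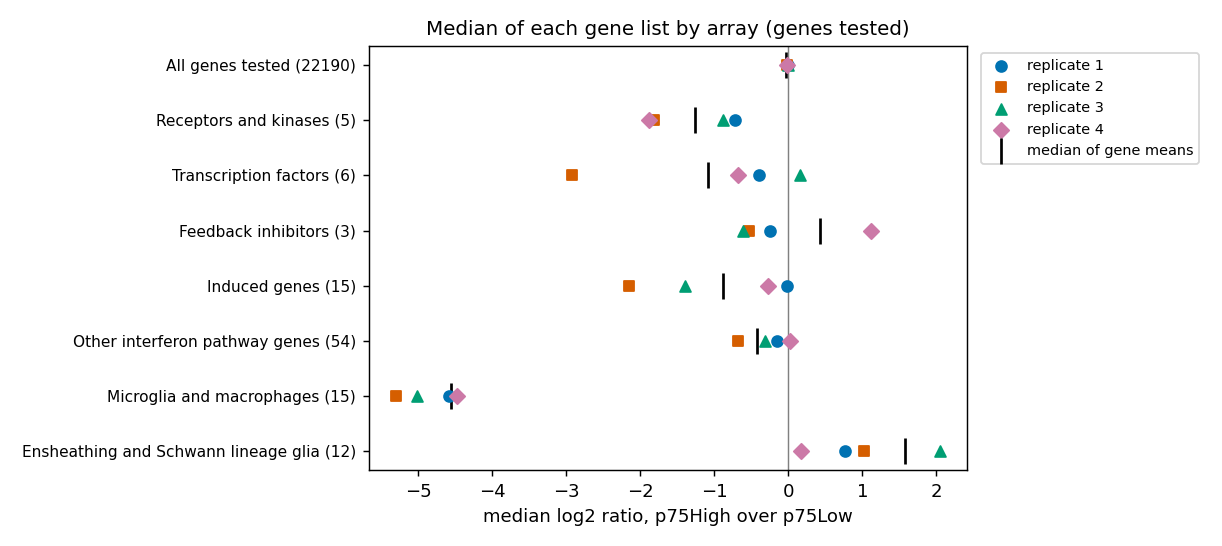
Median log2 ratio of p75High over p75Low (horizontal axis) of each gene list, with the number of genes tested in brackets; symbols are replicates 1 to 4 and black bars the median of the genes' means. The medians of all genes lie between -0.02 and 0, the induced genes range from -2.15 to -0.02, and the microglia and macrophage markers lie below -4.4 on every array.

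The other induced genes varied in direction. Oas1a, a synthetase of the oligoadenylates that activate RNase L, was negative on all 4 arrays but close to 0, from -0.66 to -0.10 (mean -0.36 ± 0.29). Oasl, its catalytically distinct relative, averaged -0.58 ± 1.66, and 0.08 without replicate 4. Ifi35, a cytoplasmic protein that binds Nmi, averaged -0.98 ± 1.31 and was positive on replicate 1 alone. Eif2ak2, the kinase PKR that stops translation on double-stranded RNA, averaged -1.06 ± 1.60, with -3.45 on replicate 1 and values between -0.39 and -0.04 on the rest. Its p75High channel was well above background on 2 of 4 arrays, as was that of Ifit3. Another Eif2ak2 probe, below the filter, read -5.17, -4.23, 4.36 and -0.30, far from the kept probe on replicates 2 and 3. Isg20, an RNA exonuclease, averaged 0.10 ± 2.93, with 3.40 on replicate 2 and -3.73 on replicate 3, and its mean was -0.05 and -1.0 without replicates 1 and 2. Ddx58, the RNA sensor RIG-I, averaged 0.43 ± 1.78, and Gbp2, a guanylate-binding protein, 0.47 ± 1.70; both were highest on replicate 1, at 2.81 and 2.88. Without replicate 1 their means were -0.36 and -0.33. Ifit1 averaged 0.87 ± 1.34, with 2.85 on replicate 1 and -0.08 to 0.37 elsewhere. None of these 8 genes passed in limma, with adjusted p from 0.53 to 0.977.

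The 6 induced genes below the filter were Mx2, Oas1b, Ifit2, Rsad2, Ifih1 and Gbp5. Both probes of Ifit2 and both of Rsad2 (viperin) were well above background on 0 of 4 arrays in either channel, and Ifih1, Gbp5 and Oas1b on 1 of 4 in each. No ratio is drawn from these genes. A pair of further probes named Ifit1 lay at another place on chromosome 1 and were not above background on any array.

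The ratios of members with and without the promoter match are given as a description. The 9 tested members with an ISRE core in the window had a median of -0.89, from -3.06 to 0.47, with 6 negative. The 15 tested members with a window and no core had a median of -0.98, from -5.97 to 0.09, with 14 negative. Slfn2, Ifngr1, Irf5 and Slfn3 had no core, and Ifi44 had 2. The window used for Slfn3 is that of the RefSeq gene of this name.

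A wider list of 82 other interferon pathway genes had 63 on the array and 54 tested, of which 0 were higher and 1 was lower past the threshold. Their median was -0.42, with 37 negative and 17 positive means. At an unadjusted p under 0.05, limma gave 7 lower and 2 higher, against 6.92% and 5.82% of all genes. On all 4 arrays 7 were negative (13%, against 13.1% of all genes) and 3 positive (5.56%, against 12.6%). Of the 53 that did not pass, those with the smallest p lay in opposite directions. Ifi27l2b, an interferon-inducible gene of the Ifi27 family, read 1.94, 2.29, 2.67 and 2.47 (mean 2.34 ± 0.31, adjusted p = 0.0654). Its p75High levels, from 15.81 to 16.43, all exceeded its p75Low levels, from 13.44 to 14.00. Ifi47, an interferon gamma-inducible GTPase, read -2.92, -2.05, -3.64 and -1.41 (mean -2.50 ± 0.98, adjusted p = 0.172). Ifi27l2b thus stood above 0 on every array, which 0 of the 29 members did. Ifi27 itself was negative on every array (mean -2.62 ± 2.37, adjusted p = 0.389).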

How the data were processed

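Gene expression was measured in p75High and p75Low olfactory ensheathing cells on 4 two-colour Agilent arrays of design 014879, all on 1 slide. The labels name bead isolation of mRNA, a global PCR amplification of cDNA and 250 ng of cDNA per labelling, each of which can act on the ratios. Agilent Feature Extraction is given as 10.5 in the submitters' processing notes and as 10.5.1.1 in the file headers, with genome rn4. Per the file headers, each spot's deposited intensity was its mean pixel brightness, with the median local background beside it, neither normalized. The deposited log10 ratios, which the scanner software made after subtracting background, detrending and normalizing the dyes, per the file headers, served as an alternative; the authors' value table held the same ratios, with a largest difference of 0 and a median of 0 in each column.

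In limma 3.58.1 (R 4.3.3), background was corrected by normexp with an offset of 50, and loess with a span of 0.3 normalized each array. Of 173516 readings, 1112 (0.641%) marked as outliers were left out. Probes had to exceed background clearly in 1 channel on 3 or more of the 4 arrays, which left 24872 of 41012, and each gene was represented by its brightest remaining probe. Names came from the file, updated through RefSeq (11150 probes by accession, 5121 by symbol, 3432 by older symbol, 21309 unmatched). The log2 ratio was tested against 0 with lmFit and eBayes, two-sided, with Benjamini-Hochberg adjustment at 0.05 over 22190 genes; the fit was tested on simulated data. The labels state that samples were paired. Deviations of the channels of the same array correlated at 0.06 to 0.26, and at most at 0.05 with another array. The channels of an array share its spots and hybridization, so these correlations cannot test the pairing. Between arrays the log2 ratios correlated at 0.17 to 0.25 over genes with a value on all 4. Both this low correlation and the number of arrays limit the precision.

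Full values are given for members past the threshold, or negative or positive on all 4 arrays with a mean of at least 2; others were named by role. The members and lists were chosen with earlier results of these data known. Of the wider pathway list, 1 gene that passed is not reported here. Whether probes lie in exons or untranslated regions was not analysed here.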

Additional observations from a re-analysis of the deposited data

Results flagged for a closer look

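In 4 of 35 sets of 4 array values, 1 array stood apart from the other 3 by Dixon's criterion, which chance gives for about 1 set in 20. Ifngr1, the interferon gamma receptor chain, read -2.24 on replicate 3 and between -4.12 and -3.84 on the others. Ifit3, an RNA-binding antiviral protein, read -4.69 on replicate 2 and between -0.02 and 0.92 on the others. Eif2ak2, the kinase PKR, read -3.45 on replicate 1 and between -0.39 and -0.04 on the others by its kept probe. A probe of Eif2ak2 below the filter read -4.23 on replicate 2 and 4.36 on replicate 3. Ifit1, of the same family as Ifit3, read 2.85 on replicate 1 and between -0.08 and 0.37 on the others. The array that stood apart was replicate 1 for Eif2ak2 and Ifit1, in opposite directions.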

How the results depend on the processing

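The number of members lower in p75High was 1 with the processing used. It was 2 with the scanner's log ratios and 2 with a filter on all 4 arrays, which left 24 members, and Ifngr1 was the addition in both. It was 0 with no filter on dim probes, which raised the genes tested to 35579, and 0 to 0 without each replicate in turn, when 0 genes of the whole array passed. With no replicate block, the pairing within an array being ignored, it was 1. With a filter met in both channels, chosen after the data were seen, it was 1 of 23. Members higher in p75High numbered 0 under every alternative. The members' median lay between -1.23 and -0.65. That of the transcription factors lay between -1.75 and -0.36, and that of the feedback inhibitors between 0.08 and 0.67. Median centring moved the median of all genes from -0.03 to 0.13, and the members' median was then -0.67.

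Members short of the threshold throughout changed sign as follows. Irf3 read 0.04 without background correction, 0.10 with the scanner's ratios and 0.15 with median centring. Leaving out 1 replicate gave ranges of -0.79 to 1.26 for Irf3, -1.84 to 0.46 for Jak1, -0.18 to 0.38 for Irf1, -1.87 to 0.56 for Stat3 and -1.23 to 0.06 for Mx1. It gave -1.25 to 0.08 for Oasl, -1.49 to 0.38 for Ifit3, -1.0 to 1.37 for Isg20, -0.36 to 1.04 for Ddx58 and -0.33 to 0.90 for Gbp2. The cause was not tested. Counts over all genes ranged from 37 to 152 higher and from 52 to 156 lower with 4 arrays, against 69 and 97 as reported. With no filter they were 37 and 52, with the scanner's ratios 113 and 154, and with no replicate block 152 and 156.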
